A study of Neurospora crassa with 8 samples.

Results

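The genes examined are 9 genes of Neurospora crassa, a filamentous fungus, whose products make or remove reactive oxygen or keep it from forming in respiration: the catalases cat-1 (NCU08791), cat-2 (NCU05770) and cat-3 (NCU00355), the superoxide dismutases sod-1 (NCU02133) and sod-2 (NCU01213), the NADPH oxidases nox-1 (NCU02110) and nox-2 (NCU10775), their regulatory subunit nor-1 (NCU07850), and the alternative oxidase aod-1 (NCU07953). They were chosen by gene identifier from the 9730 genes of the authors' table of normalized counts, and all 9 were found there. Poly-A RNA was sequenced from 2 wild type (WT) strains and 2 strains whose genotype label puts nat-1, a marker, in place of the gene pas (NCU04278), with 1 library per strain. WT replicate 1 was strain N3752, labelled mating type A; WT replicate 2 was strain N3753, and ∆pas replicates 1 and 2 were strains N7617 and N7680, all labelled mating type a. All 4 RNA cultures were grown shaking for 16 hours (32 °C, Vogel's minimal medium, 1.5% sucrose), and their tissue is labelled germinated conidia, although the protocol speaks of harvested mycelia. The 4 ChIP libraries of the series were not analysed here.

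NADPH oxidases pass electrons from NADPH to oxygen and so release superoxide; in fungi they need a regulatory subunit to be active. Superoxide dismutases turn superoxide into hydrogen peroxide, and catalases break hydrogen peroxide down to water and oxygen. The alternative oxidase sits in mitochondria, where it takes electrons from ubiquinol past the cytochrome chain and so limits superoxide formed there. In Neurospora, reactive oxygen and the catalases are known to change when hyphae start to form conidia, the asexual spores. The pas gene is named by the series as coding for an accessory subunit of PRC2, the Polycomb complex that methylates H3K27, which marks silent genes; its catalytic subunit is the product of set-7.

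The check of the labels bears on every direction given here. The read count of pas itself was 119 and 95.1 normalized counts in WT replicates 1 and 2, against 43.1 and 98.1 in ∆pas replicates 1 and 2, so ∆pas replicate 2 lay between the WT libraries and loss of the transcript was not seen; the mutant libraries are therefore called ∆pas-labelled. In the authors' deposited table the log2 fold change of pas (NCU04278) was -0.77 ± 0.357 (SE), with a p-value of 0.0311 and an adjusted p of 0.4. The reads of matA-1, a gene of mating type A, ran with the mating type labels, with 26 in WT replicate 1 and 0, 0 and 1 in WT replicate 2 and ∆pas replicates 1 and 2. The reads in genes came to between 7139105 and 14679872 per library, lowest in WT replicate 1. Reads outside annotated features made up 5.41% and 6.76% in WT replicate 1 and ∆pas replicate 2, and 15.2% and 13.9% in WT replicate 2 and ∆pas replicate 1, a split that crosses the groups. Of 5 conidiation genes, which mark another developmental state of the fungus, eas, which codes for the hydrophobin of the conidial coat, was at 8931 and 30017 normalized counts in WT, against 3311 and 2983 in the ∆pas-labelled libraries. The gene con-6 was at 636 and 562 in WT, against 999 and 1157 in the ∆pas-labelled libraries, while con-10, at 2072 and 1058 in WT, against 2382 and 710 in the others, and fl, at 1961 and 2970 against 2353 and 2413, overlapped between the groups. The fifth, con-8, was at 2527 and 1608 in WT, against 3066 and 2748 in the ∆pas-labelled libraries. Summed, the 5 came to 16128 and 36215 in WT, against 12111 and 10011 in the ∆pas-labelled libraries, and none of the 5 was at 0. Most of the WT sums came from eas, so they give no common direction of the 5. Both con-6 and con-8 went the other way, and con-10 and fl overlapped. In the authors' deposited table for the pas mutant con-8 had the opposite sign, with a log2 fold change of -1.25. The values there were 0.97 for con-6, 0.43 for fl, -0.03 for con-10 and -1.10 for eas. None of the 5 had a limma adjusted p under 0.05, con-6 and eas being lowest at 0.0797 and 0.0833, whereas DESeq2 on the recovered reads called these 2, with adjusted p-values of 0.00838 and 0.0144.

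Compared between the groups, none of the 9 genes passed the test across all genes (limma adjusted p under 0.05), and 3 of them, cat-2, cat-1 and nor-1, were higher in the ∆pas-labelled libraries at an unadjusted p under 0.05. Over all 8219 tested genes, 0.28% were called higher and 0.0852% lower, and 10.2% were higher and 11.1% lower at an unadjusted p under 0.05. The same 0 of 9 held with edgeR's quasi-likelihood test on the recovered reads, whereas DESeq2 on those reads called 1, cat-2, at a background of 3.5% higher and 4.85% lower. The log2 fold changes of the 9 genes ran from -0.32 to 0.76 with a median of 0.33, against a median of 0.03 over all tested genes, with 6 above 0 and 3 below. In 5 of the 9, both ∆pas-labelled libraries lay above both WT libraries, and in 2 both lay below; over all tested genes these shares were 29.5% and 26.5%. Summed over the 9 genes, the share of all normalized counts in genes was 0.203% and 0.206% in WT and 0.254% and 0.28% in the ∆pas-labelled libraries. The most abundant genes weigh most in this sum, cat-1 first, while the log2 fold changes of cat-3, sod-1 and aod-1 were below 0. In bulk RNA such as this, a change in the number of cells of a kind and a change in RNA per cell cannot be told apart.

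**Figure D1:**
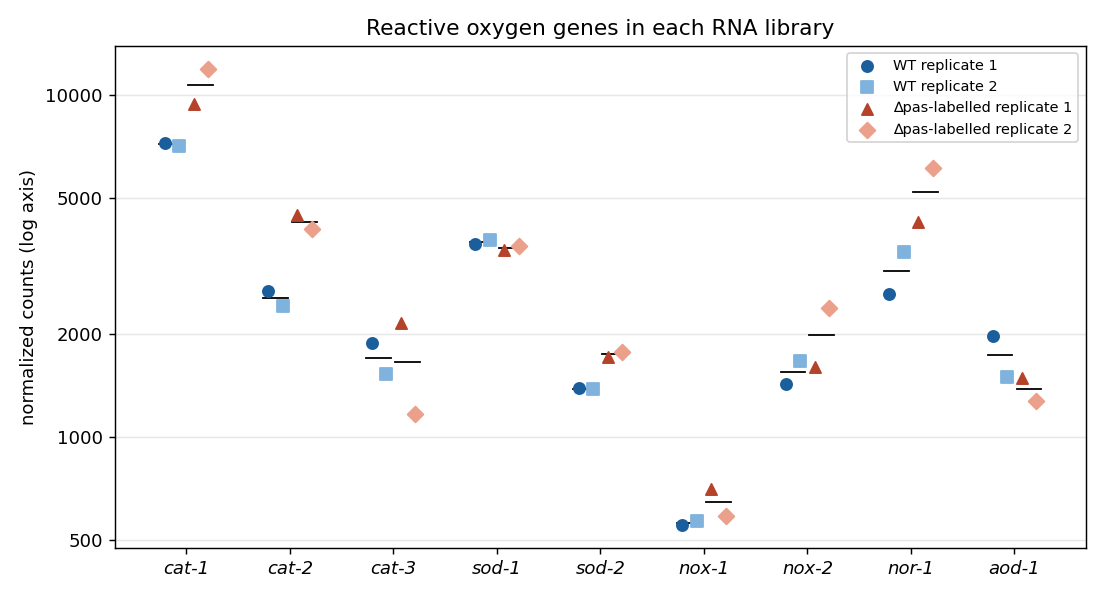
Normalized counts (log axis) of the 9 genes in the 4 RNA libraries; each point is 1 library and the black lines are the group means. The values of cat-1, cat-2, sod-2, nox-1 and nor-1 in both ∆pas-labelled libraries lie above both WT values, and those of aod-1 and sod-1 below. Those of cat-3 and nox-2 overlap between the groups, and those of sod-1 differ little in any library (3507 to 3752.9).

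The gene cat-1, which codes for the heat-resistant catalase that accumulates in conidia, had 7222 and 7103 normalized counts in WT replicates 1 and 2, against 9394 and 11915 in ∆pas replicates 1 and 2. The groups did not overlap: the WT libraries were close to each other and ∆pas replicate 2 was the highest. The mean was 1.49 times that of WT, or 0.56 ± 0.17 as a log2 fold change (SE, n = 2 each; limma, adjusted p = 0.143, and 0.0151 before adjustment). It was 0.72 between ∆pas replicate 2 and WT replicate 1, the libraries with few reads outside features, and 0.40 between the other 2. Beside it, the conidiation genes con-6 and con-8 were higher in both ∆pas-labelled libraries than in both WT libraries and eas lower. Values of con-10 and fl overlapped between the groups, and the part of these conidiation genes in the cat-1 values was not tested.

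The gene cat-2, which codes for a bifunctional catalase-peroxidase, had 2668 and 2413 normalized counts in WT, against 4453 and 4053 in the ∆pas-labelled libraries. Here too the groups did not overlap, and within each group the libraries lay close, at 1.11 and 1.1 times each other. The means of 2541 ± 180 and 4253 ± 283 (SD, n = 2 each) differed 1.67-fold, or 0.74 ± 0.149 as a log2 fold change (SE; limma, adjusted p = 0.0797, and 0.00211 before adjustment). With DESeq2 on the recovered reads the log2 fold change was 0.73 and the adjusted p 0.00887, so the call of cat-2 depended on the tool. For ∆pas replicate 2 over WT replicate 1 it was 0.60, and for ∆pas replicate 1 over WT replicate 2 it was 0.88.

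The gene cat-3, whose product is the main catalase of growing hyphae, had 1877 and 1526 normalized counts in WT, against 2154 and 1167 in the ∆pas-labelled libraries. The highest and the lowest value both came from ∆pas-labelled libraries, so the groups overlapped entirely. The log2 fold change was -0.09 ± 0.298 (SE, n = 2 each; limma, adjusted p = 0.881), with a 95% interval from -0.81 to 0.63. It was -0.69 between ∆pas replicate 2 and WT replicate 1 and 0.50 between ∆pas replicate 1 and WT replicate 2. It was 0.06 without WT replicate 1 and 0.35 without ∆pas replicate 2, so its sign rests on single libraries.

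Per kilobase of gene, cat-1 made up 62.4% and 65.3% of the summed level of the 3 catalase genes in WT and 59.6% and 70.2% in the ∆pas-labelled libraries. The part of cat-2 was 22.8% and 21.9% in WT and 27.9% and 23.6% in the ∆pas-labelled libraries, and that of cat-3 14.8% and 12.8% against 12.5% and 6.28%. The cat-1 level per kilobase was 11.2 times that of cat-3 in ∆pas replicate 2, and 4.21 to 5.09 times in the other libraries.

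The libraries of a group differed by at most 1.04 times in both superoxide dismutase genes. The gene sod-1, for the copper and zinc enzyme of the cytosol, had 3654 and 3752.9 normalized counts in WT, against 3507 and 3621 in the ∆pas-labelled libraries, so that the highest of the 4 libraries was 1.07 times the lowest. Both ∆pas-labelled libraries lay just below both WT libraries. The log2 fold change was -0.06 ± 0.139 (SE, n = 2 each; limma, adjusted p = 0.845), and its 95% interval of -0.39 to 0.28 spans changes between 0.763-fold and 1.21-fold.

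The gene sod-2, for the manganese enzyme of mitochondria, had 1391 and 1378 normalized counts in WT, against 1714 and 1776 in the ∆pas-labelled libraries. The groups did not overlap, and the libraries within a group differed by 1.01 and 1.04 times, against 1.26 times between the group means. The log2 fold change was 0.33 ± 0.143 (SE, n = 2 each; limma, adjusted p = 0.245, and 0.0556 before adjustment), with a 95% interval from -0.01 to 0.68. Per kilobase of gene, the level of sod-1 was 5.23 and 5.42 times that of sod-2 in WT and 4.07 and 4.06 times in the ∆pas-labelled libraries.

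Of the NADPH oxidase genes, nox-1, needed for sexual development and normal hyphal growth in Neurospora, was the least abundant of the 9 genes, with 554 and 568 normalized counts in WT, against 707 and 588 in the ∆pas-labelled libraries. The groups did not overlap, but ∆pas replicate 2 lay close above WT replicate 2. The log2 fold change was 0.20 ± 0.173 (SE, n = 2 each; limma, adjusted p = 0.535).

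The gene nox-2, whose product is needed for ascospores to germinate, had 1427 and 1672 normalized counts in WT, against 1597 and 2379 in the ∆pas-labelled libraries. Replicate 1 of the latter lay between the WT libraries, and only replicate 2 was above them. The log2 fold change was 0.34 ± 0.224 (SE, n = 2 each; limma, adjusted p = 0.424), and 0.05 without ∆pas replicate 2. Between ∆pas replicate 2 and WT replicate 1 it was 0.74, and between ∆pas replicate 1 and WT replicate 2 it was -0.07.

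The regulatory subunit gene nor-1 had 2621 and 3474 normalized counts in WT, against 4262 and 6117 in the ∆pas-labelled libraries. It had the widest range of the 9 genes, with the highest library at 2.33 times the lowest, and its groups did not overlap although the libraries within each group differed by 1.33 and 1.44 times. The means were 3047 ± 603 and 5190 ± 1311 (SD, n = 2 each), or 0.76 ± 0.231 as a log2 fold change (SE; limma, adjusted p = 0.145, and 0.0155 before adjustment). Of the 9 genes this was the highest log2 fold change, ahead of cat-2. It was 1.22 between ∆pas replicate 2 and WT replicate 1, the libraries with few reads outside features, and 0.29 between ∆pas replicate 1 and WT replicate 2. With the share of reads outside features as a covariate the nor-1 log2 fold change was 0.76 (limma, adjusted p = 0.276). That share was nearly balanced between the groups (5.41% and 15.2% in WT, 13.9% and 6.76% in the ∆pas-labelled libraries). The covariate could therefore hardly move the fold change, and the equal value is no check of it. Per kilobase of gene, the level of nor-1 was 3.91 and 5.05 times that of nox-1 in WT and 4.98 and 8.59 times in the ∆pas-labelled libraries.

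The alternative oxidase gene aod-1, which is known to be induced when the cytochrome chain is blocked, had 1967 and 1497 normalized counts in WT, against 1486 and 1273 in the ∆pas-labelled libraries. Both ∆pas-labelled libraries lay below both WT libraries, but ∆pas replicate 1 and WT replicate 2 were nearly equal. The log2 fold change was -0.32 ± 0.191 (SE, n = 2 each; limma, adjusted p = 0.375). It was -0.63 between ∆pas replicate 2 and WT replicate 1 and -0.01 between ∆pas replicate 1 and WT replicate 2.

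**Figure D2:**
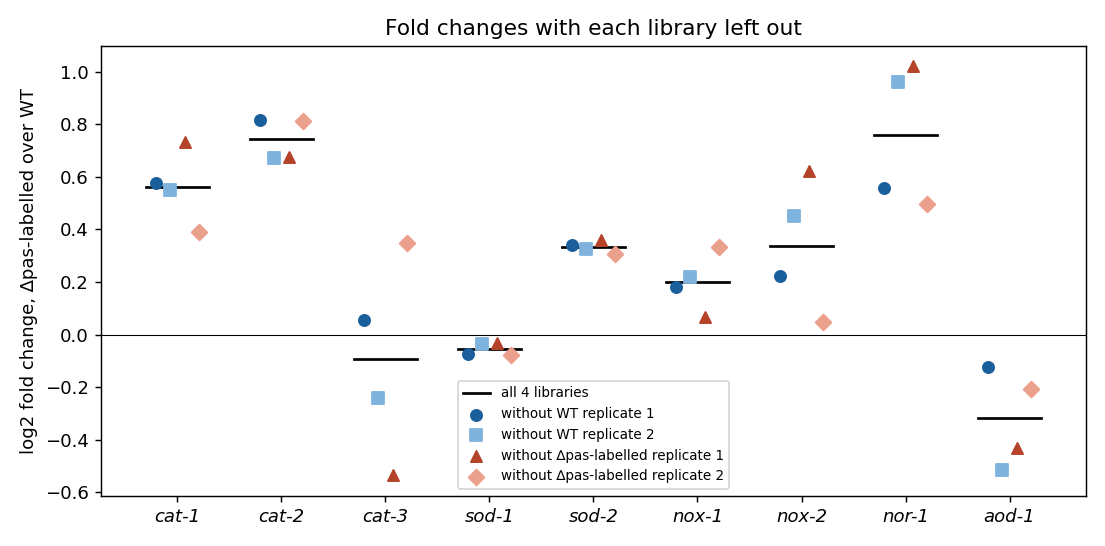
Log2 fold change of each of the 9 genes (∆pas-labelled libraries over WT) with all 4 libraries (black line) and with each library left out (points). The values of cat-1, cat-2, sod-2, nox-1, nox-2 and nor-1 stay above 0 in every case, and those of sod-1 and aod-1 below 0. Those of cat-3 lie on both sides of 0 (-0.54 to 0.35), and those of nox-2 run from 0.05 to 0.62.

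The calls depended on which libraries entered the fit. The pas count was 43.1 in ∆pas replicate 1 and 98.1 in ∆pas replicate 2, against 119 and 95.1 in WT. The fit without ∆pas replicate 1 thus rests on the ∆pas-labelled library whose pas count was within the WT range. Without ∆pas replicate 1, cat-1, cat-2 and nor-1 passed the threshold, with log2 fold changes of 0.73, 0.68 and 1.02 and limma adjusted p-values of 0.03, 0.0388 and 0.0226; the lone library of its group is then assumed to vary as the WT libraries do, and 518 genes were called higher and 585 lower in that fit. Without WT replicate 1, the library of mating type A, the log2 fold changes of cat-1, cat-2 and nor-1 were 0.58, 0.82 and 0.56. The 3 libraries of that fit are all labelled mating type a. Without WT replicate 2 the values of these genes were 0.55, 0.67 and 0.96. They were not called in either fit, each with 1 WT library, and that outcome was not particular to these genes. The 2 libraries within each group differed by a median of 0.14 on the log2 scale over the 9 genes in WT and 0.26 in the ∆pas-labelled libraries, against 0.21 and 0.28 over all tested genes.

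Per kilobase of gene, a rough way to compare levels of different genes, the order over the 4 libraries began with cat-1. It was at 2423 to 4065 normalized counts per kilobase, followed by sod-1 at 2228 to 2384. The gene cat-1 was above sod-1 in 4 of 4 libraries, and their ranges did not overlap. The gap between the ranges was narrow, however (2423 against 2384), and a small change in the lengths used could close it. Next came cat-2 at 813 to 1500, nor-1 at 623 to 1453, aod-1 at 625 to 966, cat-3 at 364 to 672, nox-2 at 410 to 684 and sod-2 at 440 to 567. Of these 6, each range overlapped the next in the order, and cat-2 was above nor-1, cat-3 above nox-2 and nox-2 above sod-2 in 2 of 4 libraries each, so these neighbours did not differ beyond their spread. The gene nor-1 was above aod-1 in 3 of 4 libraries, and aod-1 above cat-3 in 4 of 4. The gene nox-1 was last, at 159 to 203, below sod-2 in 4 of 4 libraries and without overlap. Lengths were gene spans, introns included, from the RefSeq annotation of assembly NC12, and the annotation used by the authors is not given in the sources used here. As the libraries are of poly-A RNA, this limits the order and the per-kilobase shares and ratios given above.

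Other genes around the same reactions were examined from lists of identifiers. Of 6 genes listed as further antioxidant enzymes, 0 passed limma's test (2 were lower and 0 higher at an unadjusted p under 0.05, and edgeR and DESeq2 called 0). All 6 log2 fold changes were below 0 in this fit, with a median of -0.29 and the highest at -0.03. Over all tested genes 11.1% were lower at an unadjusted p under 0.05, and 47.1% of log2 fold changes were below 0. The lowest value was that of cys-9 (NCU08352), which codes for thioredoxin reductase, at 1735 and 1618 normalized counts in WT, against 1356 and 734 in the ∆pas-labelled libraries. Its groups did not overlap, with ∆pas replicate 2 far below the rest, and the log2 fold change was -0.75 ± 0.288 (SE, n = 2 each; limma, adjusted p = 0.21). In the authors' deposited table for the pas mutant the 6 genes lay on both sides of 0. Their log2 fold changes there were -0.53, -0.30, -0.02 (cys-9), 0.22, 0.30 and 0.37.

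The further catalase gene cat-4 (NCU05169) was at 105 and 124 normalized counts in WT, against 74.5 and 68 in the ∆pas-labelled libraries. Its log2 fold change of -0.67 ± 0.246 (SE, n = 2 each; limma, adjusted p = 0.195) thus had the opposite sign to those of cat-1 and cat-2. NCU03339 had the widest spread of the list, at 9540 and 3295 in WT, against 10594 and 1895 in the ∆pas-labelled libraries. It was high in replicate 1 and low in replicate 2 of both groups, and its log2 fold change was -0.32 ± 0.831 (SE, n = 2 each; limma, adjusted p = 0.848). Replicate numbers pair nothing here.

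Of 11 genes listed as oxidase partners and stress signalling, 0 passed limma's test (1 was lower and 0 higher at an unadjusted p under 0.05, and edgeR and DESeq2 called 0), with 4 log2 fold changes above 0 and 7 below and a median of -0.05. The lowest was that of os-2 (NCU07024), the mitogen-activated protein kinase of the osmotic and oxidative stress pathway, at 4295 and 4707 normalized counts in WT, against 3299 and 2773 in the ∆pas-labelled libraries. Its groups did not overlap, and the log2 fold change was -0.57 ± 0.159 (SE, n = 2 each; limma, adjusted p = 0.126). The kinases os-4 and os-5, which act above it, had log2 fold changes of -0.04 and -0.05, and the response regulators rrg-1 and rrg-2 had -0.32 and -0.22. The gene asl-1, for a transcription factor, had -0.25. In the authors' deposited table for the pas mutant, os-4, os-5, rrg-1 and asl-1 were above 0, at 0.32, 0.21, 0.12 and 0.04. There os-2 and rrg-2 were at -0.08 and -0.10. The small GTPase gene rac-1, known to act with NADPH oxidases in fungi, had 2101 and 2086 normalized counts in WT, against 1865 and 1806 in the ∆pas-labelled libraries, a log2 fold change of -0.19. The highest values of the list were 0.40 for NCU03905, 0.26 for cdc24 and 0.16 for aod-5, which codes for a transcription factor needed for aod-1. Without ∆pas replicate 1, os-2 and cys-9 passed the threshold (limma, adjusted p = 0.0341 and 0.0106), with log2 fold changes of -0.70 and -1.19; that fit, with 1 library in the group, called 7.12% of all tested genes lower, against 0.0852% with all 4 libraries.

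A further 7 genes carry a symbol that begins with aod, gst (glutathione S-transferase) or trx (thioredoxin) in the RefSeq table. None of the 7 passed limma's test, 0 had an unadjusted p under 0.05, and edgeR and DESeq2 called 0. The median log2 fold change was -0.12, with a range from -0.63 for aod-3, the second alternative oxidase gene, to 0.35 for trx. The gene aod-3 was at 105 and 144 normalized counts in WT, against 76.9 and 81.7 in the ∆pas-labelled libraries, without overlap, as was aod-1.

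**Figure D3:**
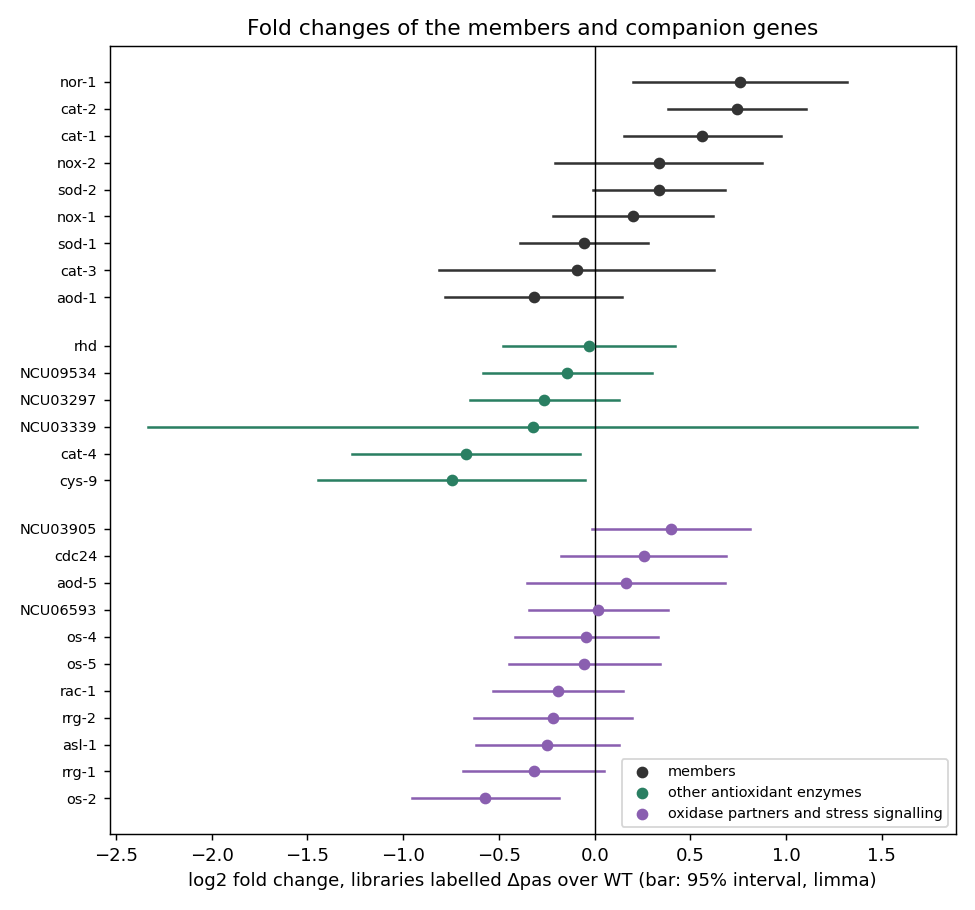
Log2 fold changes of the 9 genes and of 17 companion genes in the ∆pas-labelled libraries over WT, with limma's 95% intervals for single genes. Among the 9 genes, the intervals of nor-1, cat-2 and cat-1 lie above 0 without adjustment for the number of genes tested, and the companion genes cat-4, cys-9 and os-2 lie below 0 in the same sense.

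The genes most like nor-1 over the 4 libraries, by Euclidean distance of log2 values centred on each gene's WT mean, were NCU04065 (distance 0.0605), NCU00132 (0.0703) and NCU04748 (0.0795) among 8210 other tested genes. NCU04065 was at 218 and 301 normalized counts in WT, against 359 and 536 in the ∆pas-labelled libraries. The genes most like aod-1, which had the lowest log2 fold change of the 9, were NCU04493 (distance 0.0483), NCU03325 (0.0527) and NCU00209 (0.0533). With 4 libraries such likeness is common: 589 genes lay within a distance of 0.5 of nor-1 and 1912 of aod-1.

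The study also compared WT with strains lacking set-7, for which the authors' deposited tables give a fold change per gene. The tables for the pas and set-7 mutants give the same mean count for each of the 9 genes, so the same libraries, WT included, entered both, and their values are set side by side only. Signs are given as mutant over WT, the reverse of the tables; set-7 itself was at -3.51 ± 0.4 (SE) in the authors' deposited table for its mutant. In the authors' deposited table for the set-7 mutant, 1 of the 9 genes was called higher and 1 lower at an adjusted p under 0.05. Of the 8661 genes with an adjusted p there, 2.31% were called higher and 3% lower. In the authors' deposited table for the pas mutant, 0 of 9 were called, 0 had an unadjusted p under 0.05, and the lowest adjusted p was 0.705. Of the 7917 genes with an adjusted p there, 0.796% were called higher and 0.392% lower.

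The gene called higher without set-7 was sod-1, at 0.81 ± 0.157 on the log2 scale (SE; adjusted p = 3.02e-05) in the authors' deposited table. In the authors' deposited table for the pas mutant sod-1 was at -0.16 ± 0.157 (SE; adjusted p = 0.779). The gene called lower without set-7 was aod-1, at -1.0 ± 0.293 (SE; adjusted p = 0.0174) in the authors' deposited table, against -0.08 ± 0.291 (SE; adjusted p = 0.956) in that for the pas mutant. For cat-1 the authors' deposited tables gave -0.48 ± 0.368 (SE) for the set-7 mutant and 0.27 ± 0.368 (SE) for the pas mutant, with adjusted p-values of 0.519 and 0.852. The other 6 genes lay between -0.22 and 0.28 for the set-7 mutant and between -0.25 and 0.32 for the pas mutant in the authors' deposited tables. Whether the mutants differ from each other was not tested.

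The authors' deposited comparison of pas and the fit to the 4 libraries gave opposite signs for 3 of the 9 genes, cat-2, cat-3 and sod-2. For cat-2 the authors' deposited table gave -0.24 ± 0.456 (SE; adjusted p = 0.905), against 0.74 here, and for sod-2 it gave -0.25 ± 0.409 (SE; adjusted p = 0.88), against 0.33 here. For nor-1 the authors' deposited table gave 0.09 ± 0.386 (SE; adjusted p = 0.965), against 0.76 here. The mean count of cat-2 in the authors' deposited table was 5296, above the highest of the 4 libraries at 4453, and the same held for sod-1, with 4672 against 3752.9, and sod-2, with 2057 against 1776. For aod-1 the authors' deposited table gave a mean of 1242, below the lowest library at 1273. Libraries other than these 4 therefore entered the authors' means. Their part in the differing signs was not tested.

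**Figure D4:**
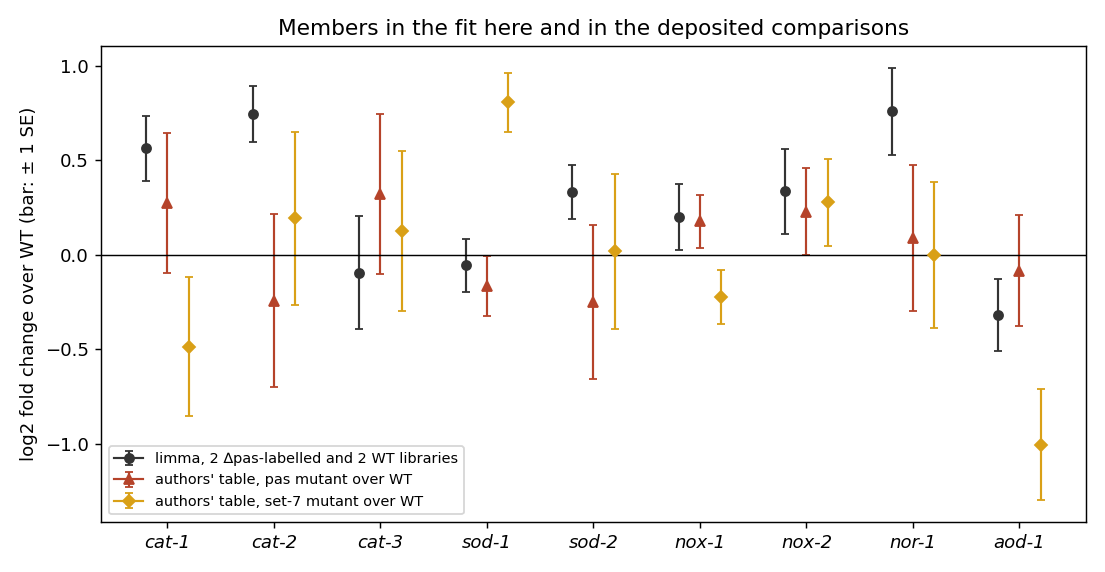
Log2 fold changes over WT of the 9 genes, with bars of 1 SE, from limma on the 4 libraries (circles), from the authors' deposited table for the pas mutant (triangles) and from that for the set-7 mutant (diamonds). The set-7 values stand farthest from 0 for sod-1 (0.81) and aod-1 (-1.0), and the circles and triangles lie on opposite sides of 0 for cat-2, cat-3 and sod-2.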

How the data were processed

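The authors deposited normalized counts per gene, a signal that is never negative, for 4 RNA libraries; 4 further columns match no sample of this series and were not used. Values were whole multiples of 1 step per library for 100% of genes (tolerance 0.01 reads), which gave back the reads. The 4 summary entries of the counter, 12.1% to 22% of reads, were left out. Tools named in the submitters' processing notes are Bowtie2, DESeq2 and deepTools, with no role; the genome build and strand setting are not given in the sources used here. By the RefSeq NC12 table, which matched 9729 identifiers, 0 of the 9 genes overlap another gene.

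Tests covered the 8219 genes whose mean normalized count reached 5, and were made on log2(value + 1) with limma 3.58.1 in R 4.3.3 (intensity trend, group as the only term, two-sided, Benjamini-Hochberg adjustment over all tested genes), because the unit was not raw counts. Fold changes are on that scale. Alternatives included edgeR 4.0.16 and DESeq2 1.42.0 on recovered reads. An exact permutation test of 2 against 2 cannot go below 0.333. The fit was tested on simulated data with log2 changes of 1, 2 and 3 and the same spread setting for all genes. It recovered 86.4% of the changes of 1. The fold changes of the 9 genes were smaller than that, so the simulation does not cover them. The authors also deposited, per the file headers, log2 fold changes of WT over mutant, standard errors, a Wald score, p-values and adjusted p-values. The members and lists were chosen with earlier results of these data known; as the RefSeq table has no product descriptions, the antioxidant list used fixed identifiers, and the 7 genes found by symbol were added later. Text names the 9 members, and of each list the called genes or the 3 most extreme values in a direction, plus os-4, os-5, rac-1, rrg-2, aod-3 and trx, chosen after values were seen. Limma's p-values rest on the spread between these strains, drawn toward the trend over all genes (2 residual and 4.34 prior degrees of freedom). With 1 library per strain, differences of strain, culture and library cannot be told apart.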

Additional observations from a re-analysis of the deposited data

How the results depend on the processing

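No paired analysis was possible because the labels give strain names and no replicate numbers. Over the 11 alternatives that keep all 4 libraries, 98 of 99 member values kept their sign and side of the threshold. The other was cat-2 with DESeq2, which gave 1 member called higher. The filters, the fit without trend and the nearly balanced covariate leave a fold change as it was or nearly so. At these counts the pseudocounts hardly move it either. For such settings the sign was fixed in advance, and only the side of the threshold could change. Leaving out a library gave 0 to 3 members called higher (the cause of the 3, without ∆pas replicate 1, was not tested), 0 to 2 companion genes called lower, and -0.54 to 0.35 for the log2 fold change of cat-3. Against 23 higher and 7 lower genes in all with limma, testing all genes gave 15 and 3, no trend 7 and 0 (788 lower at an unadjusted p under 0.05), DESeq2 254 and 352, and the covariate for reads outside features 12 and 1. Quantile scaling gave 3 lower genes. Leaving out a library gave 0 to 518 higher and 0 to 585 lower genes by limma, with 357 and 329 at an unadjusted p under 0.05 where both were 0 without WT replicate 1. With 2 libraries per group, a member such as nox-2, whose 95% interval ran from -0.21 to 0.88, can hide a change of either sign.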
